A study of Homo sapiens with 8 samples.

Results

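ATF4, a transcription factor of the integrated stress response, and 9 stress-response genes that it is known to induce (ATF3, ATF5, DDIT3, DDIT4, TRIB3, CHAC1, SESN2, CEBPB and CEBPG) were followed in ribosome-footprint data from neuroblastoma cells. The genes were listed by name, with earlier results of these data known, and each was found by its Ensembl identifier in the deposited table, which gave 10 of 60651 genes. Ribosome profiling sequences the mRNA fragments that ribosomes protect from nuclease, so a value reflects the amount of an mRNA and how heavily ribosomes occupy it, and these cannot be told apart without RNA-seq, which is not analysed here. Nor can a change in all cells be told apart from a larger one in some of them. The cells were IMR32, an established human neuroblastoma line with amplified MYCN, whose genotype is labelled WT. Treatment was either CR31B, labelled as an analog of silvestrol, or the solvent DMSO at 0.1%, with 4 libraries each that the design text calls biological replicates. In both groups cycloheximide, which stalls elongating ribosomes, was given after 6 h and fragments of 28 to 30 nt were selected. The labels give no CR31B dose, and all libraries come from 1 cell line. The comparison asks which mRNAs gain or lose share among ribosome footprints when the RNA helicase eIF4A, the target of this compound class, is inhibited. The values have the same total in each library, so a rise or fall is relative to all other genes. A change in the total amount of footprints cannot be seen.

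In the integrated stress response, kinases that sense amino acid shortage, misfolded protein, double-stranded RNA or haem deficiency phosphorylate the initiation factor eIF2. General initiation then falls, while mRNAs with particular upstream open reading frames, of which ATF4 is the textbook case, are translated better. ATF4 protein pairs with other bZIP factors, among them C/EBP proteins, and binds C/EBP-ATF response elements at genes for amino acid supply, redox balance, growth control and cell death.

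All 10 genes stood higher on average in CR31B than in DMSO, and 7 of them rose by the test across all genes: ATF4, ATF3, CEBPB, DDIT4, TRIB3, CHAC1 and SESN2. None fell, also at an unadjusted limma p under 0.05, where 12.0% of all genes tested were higher and 11.3% lower. ATF5, DDIT3 and CEBPG did not pass. SESN2 reached the mean of 1 TPM needed for testing only through its CR31B libraries, so its place in these counts is no support of its own. Of all 11778 genes tested, 3.45% were called higher and 4.02% lower (limma on log2(TPM + 1), Benjamini-Hochberg adjusted p under 0.05). In 8 of the 10 genes every CR31B library lay above every DMSO library, compared with 8.07% of all genes tested. The median log2 fold change of the 10 genes was 0.82, beside 0.03 over all genes tested, of which 54.1% lay above 0. With the replicate number as a block the number of called genes rose from 879 to 1453, and the same number of the 10 genes, 7, was called.

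**Figure D1:**
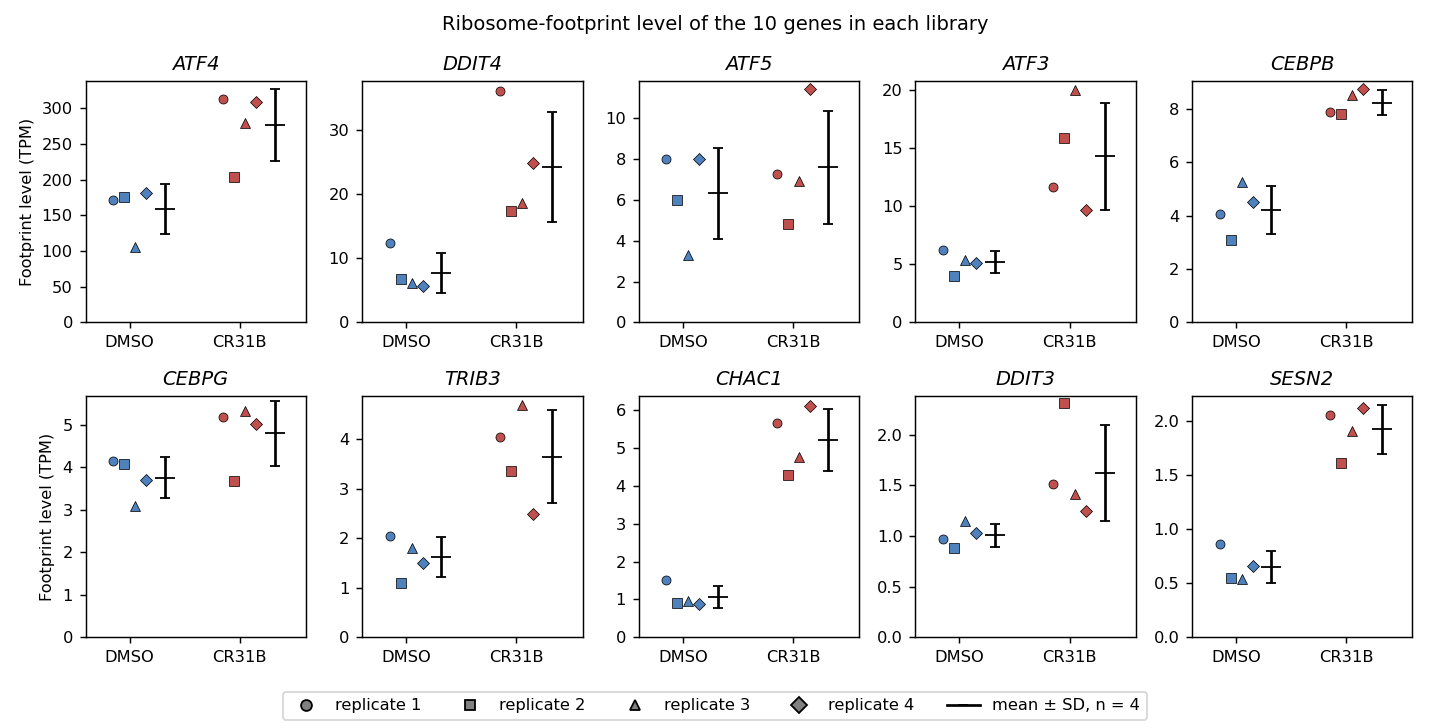
Footprint level (TPM, linear axes that start at 0 and differ in scale) of each of the 10 genes in 4 DMSO (blue) and 4 CR31B (red) libraries, with a symbol per replicate number and black bars for mean ± SD (n = 4). The points of the groups are apart in all genes except ATF5 and CEBPG.

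The cell line and the libraries were checked first. Each of 8 adrenergic neuroblastoma markers (PHOX2A, HAND2, GATA2, GATA3, ISL1, DBH, TH and MYCN) reached 1 TPM in at least 1 library, and their summed level was 990.1 to 1536 TPM in CR31B and 874 to 1030.0 TPM in DMSO. The 5 blood markers and the 5 epithelial markers were each under 1 TPM in every library, with HBB, HBA1, CD3E and CDH1 at 0 in all. The 7 mesenchymal and fibroblast markers summed to 26.0 to 39.4 TPM in CR31B and 27.4 to 38.0 TPM in DMSO, with PRRX1 and TWIST2 at 0. Protein-coding genes held from 51.8% to 61.3% of TPM per library. Genes above 0 TPM numbered 19539, 19189, 17857 and 19758 in CR31B replicates 1 to 4. In DMSO replicates 1 to 4 they numbered 21217, 21255, 19043 and 22270, more than in each same-numbered CR31B library. TPM keeps no record of read depth, so the depth behind each value is unknown and no counting interval can be given.

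The promoters of 3 of the 10 genes carry the letters TGATGNAA, a core form of the C/EBP-ATF response element, or their reverse complement TTNCATCA. They are shown because this element is the one through which ATF4 is known to act. RefSeq windows on GRCh38.p14, from 250 bases before to 50 bases after each annotated start, were searched on both strands, and all 10 genes had a window, 19 windows in all. Each stretch below is 30 bases of the plus strand, written 5′ to 3′, with the matching letters in capitals. That of ATF3 lies at chr1:212565205-212565234, that of CHAC1 at chr15:40953251-40953280 and that of CEBPG at chr19:33374060-33374089.
ATF3: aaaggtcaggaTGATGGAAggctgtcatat
CHAC1: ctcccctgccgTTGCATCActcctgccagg
CEBPG: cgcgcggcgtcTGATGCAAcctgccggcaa
The match begins 191 bases before an annotated start in ATF3, 209 in CHAC1 and 42 in CEBPG, and in CHAC1 it reads on the opposite strand. ATF3 and CEBPG each have another window, at another annotated start, without a match. Which start these cells use was not tested. The same letters occur in 3.62% of all 35116 windows and in 2.52% of the 8746 tested genes that have one. Of the 3 genes with a match, ATF3 and CHAC1 rose and CEBPG did not pass the test. ATF4, CEBPB, DDIT4, TRIB3 and SESN2 rose and have no match in these windows. Elements further from the start, or with other letters, were not searched for.

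The annotated leaders of the 10 mRNAs differ widely in upstream start codons, as read from 1 GENCODE 29 transcript per gene. The ATF4 leader has 882 nt and 7 upstream ATG codons, of which 5 open a reading frame that closes within the leader and 2 a frame that runs into the coding sequence out of phase. An out-of-phase overlapping frame of this kind is also found in ATF5, DDIT3 and ATF3, and in 16.3% of 10281 tested genes with an annotated coding start. CEBPG and TRIB3 each have 3 upstream ATG codons and SESN2 has 1, all in frames that close within the leader. CEBPB, DDIT4 and CHAC1 have none, and the CHAC1 leader is only 20 nt, beside a median of 184 nt. At least 1 upstream ATG is present in 50.5% of those genes. Both kinds of leader occur among the genes that rose: ATF4, ATF3, TRIB3 and SESN2 have upstream ATG codons, and CEBPB, DDIT4 and CHAC1 do not. The deposited values are per gene, so footprints on a leader and on the coding sequence are summed.

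ATF4 (ENSG00000128272.16, chr22:39519695-39522685 on GRCh38, plus strand) had by far the highest TPM of the 10. In DMSO replicates 1 to 4 it stood at 172.1, 176.03, 106.21 and 181.02 TPM. In CR31B replicates 1 to 4 it stood at 313.47, 204.24, 280.0 and 309.47 TPM. The groups did not overlap, with CR31B replicate 2 nearest to the DMSO libraries and DMSO replicate 3 far below the other 3. The mean of the 4 CR31B libraries was 277 ± 50.6 TPM and that of the 4 DMSO libraries 159 ± 35.3 TPM (SD), a ratio of 1.74. The log2 fold change was 0.81 (SE 0.198, 95% interval 0.37 to 1.25, limma adjusted p = 0.0338), and the exact permutation p was 0.0286, the smallest that 4 against 4 libraries allow. The call ended when 1 library was left out in 6 of 8 cases (limma adjusted p from 0.0604 without DMSO replicate 4 to 0.0906 without CR31B replicate 4, and also without CR31B replicate 1 or 3 or DMSO replicate 1 or 2), and with no filter on low values (adjusted p = 0.13). It held without CR31B replicate 2 or DMSO replicate 3, and the log2 fold change over all these omissions ran from 0.63 to 0.95. The pseudogenes ATF4P1 to ATF4P4, which could share reads with ATF4, reached at most 0.16 TPM in any library.

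ATF3 (ENSG00000162772.17, chr1:212565334-212620777, plus strand), a bZIP factor induced by many stresses that can repress its targets, rose most among the 6 transcription factors. Its levels were 6.26, 3.99, 5.35 and 5.08 TPM in DMSO replicates 1 to 4. In CR31B they were 11.68, 15.88, 19.97 and 9.65 TPM. The lowest CR31B library, replicate 4, was still above the highest DMSO library, and CR31B replicate 3 was the highest. The means were 14.3 ± 4.59 and 5.17 ± 0.935 TPM (SD, n = 4 each), a 2.76-fold difference. On the log2(TPM + 1) scale the rise was 1.27 (SE 0.211, limma adjusted p = 0.00688).

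CEBPB (ENSG00000172216.6, chr20:50190734-50192689, plus strand), a C/EBP factor that dimerises with ATF4, also rose. It stood at 4.05, 3.1, 5.26 and 4.51 TPM in DMSO replicates 1 to 4 and at 7.88, 7.81, 8.52 and 8.77 TPM in CR31B replicates 1 to 4. The CR31B libraries were close together and all above the DMSO libraries. The means of 8.24 ± 0.474 and 4.23 ± 0.903 TPM (SD, n = 4 each) differ 1.95-fold, and the log2 fold change was 0.84 (SE 0.147, limma adjusted p = 0.00887).

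CEBPG (ENSG00000153879.9, chr19:33373330-33382686, plus strand), another C/EBP factor that pairs with ATF4, had 4.14, 4.08, 3.09 and 3.71 TPM in DMSO replicates 1 to 4. In CR31B replicates 1 to 4 it had 5.19, 3.68, 5.32 and 5.02 TPM. CR31B replicate 2 lay among the DMSO libraries, while the other 3 CR31B libraries lay above them. The log2 fold change of 0.28 (95% interval -0.04 to 0.61) did not pass (limma adjusted p = 0.279), which leaves room for no change as well as for a rise of up to the upper bound.

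ATF5 (ENSG00000169136.12, chr19:49928702-49933935, plus strand), the closest relative of ATF4 and likewise controlled through upstream reading frames, overlapped between the groups. Its levels were 8.01, 6.0, 3.3 and 8.01 TPM in DMSO and 7.29, 4.82, 6.92 and 11.43 TPM in CR31B, replicates 1 to 4 in each. Only 2 of 4 replicate pairs were higher in CR31B. The log2 fold change was 0.24 (95% interval -0.37 to 0.85, limma adjusted p = 0.655), and it was 0.00 without DMSO replicate 3, the lowest library. ATF5 shares 626 exon bases with NUP62 on the opposite strand, which is higher in level (64.9 TPM in CR31B and 41.9 TPM in DMSO). Whether the counting used strand is not given in the sources used here, so reads of ATF5 and NUP62 may not have been separated and the ATF5 value is uncertain.

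DDIT3 (ENSG00000175197.12, chr12:57516588-57521737, minus strand) encodes CHOP, the bZIP factor tied to cell death in prolonged stress, and was among the lowest of the 10. In DMSO replicates 1 to 4 it stood at 0.97, 0.88, 1.15 and 1.03 TPM, and in CR31B replicates 1 to 4 at 1.51, 2.31, 1.41 and 1.25 TPM. The groups did not overlap, but the gap was narrow: CR31B replicate 4 at 1.25 TPM lay just above DMSO replicate 3 at 1.15 TPM. The means were 1.62 ± 0.472 and 1.01 ± 0.113 TPM (SD, n = 4 each), and the log2 fold change of 0.37 (95% interval 0.01 to 0.73) did not pass after adjustment (limma adjusted p = 0.203). The exact permutation p for this gene alone, not adjusted for the other genes, was 0.0286. DDIT3 shares 355 exon bases with MARS1, the methionyl-tRNA synthetase gene, on the opposite strand and 105 with AC022506.1 on its own strand. MARS1 averaged 192 TPM in CR31B and 124 TPM in DMSO, far above DDIT3, and its reads may not have been separated, as for ATF5 and NUP62. AC022506.1 averaged 10.7 TPM in CR31B and 7.74 TPM in DMSO, also above DDIT3. It lies on the same strand, so counting by strand could not separate reads in the shared bases. The DDIT3 values are uncertain for both reasons.

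The 4 effectors and feedback regulators all rose. DDIT4 (ENSG00000168209.6, chr10:72273920-72276036, plus strand) encodes REDD1, an inhibitor of mTORC1 signalling. It stood at 12.34, 6.77, 6.1 and 5.69 TPM in DMSO replicates 1 to 4 and at 36.05, 17.43, 18.64 and 24.83 TPM in CR31B replicates 1 to 4. Replicate 1 was the highest library of both groups, and even the lowest CR31B library was above it in DMSO. The means of 24.2 ± 8.52 and 7.72 ± 3.11 TPM (SD, n = 4 each) differ 3.14-fold, and the rise was 1.53 on the log2(TPM + 1) scale (SE 0.264, limma adjusted p = 0.00809). An antisense gene, DDIT4-AS1, shares 847 exon bases with DDIT4, and no value of it is used here.

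SESN2 (ENSG00000130766.5, chr1:28259527-28282491, plus strand) encodes sestrin 2, a leucine sensor that also restrains mTORC1. Its levels were low: 0.86, 0.55, 0.54 and 0.66 TPM in DMSO and 2.05, 1.61, 1.91 and 2.12 TPM in CR31B, replicates 1 to 4 in each. Every CR31B library was above every DMSO library. The means were 1.92 ± 0.226 and 0.652 ± 0.149 TPM (SD, n = 4 each), a ratio of 2.95. The log2 fold change was 0.82 (SE 0.146, limma adjusted p = 0.009). SESN2 reached the mean of 1 TPM needed for testing only through its CR31B libraries, so it could enter the test only if it was high there. It was also called with no filter on low values. With a pseudocount of 0.1 in place of 1 its log2 fold change was 1.44.

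TRIB3 (ENSG00000101255.11, chr20:362835-397559, plus strand) encodes a pseudokinase that binds ATF4 and dampens its activity. It had 2.04, 1.1, 1.81 and 1.5 TPM in DMSO replicates 1 to 4 and 4.03, 3.36, 4.69 and 2.49 TPM in CR31B replicates 1 to 4. The groups did not overlap, and CR31B replicate 4 was nearest to the DMSO libraries. The means were 3.64 ± 0.941 and 1.61 ± 0.407 TPM (SD, n = 4 each), a 2.26-fold difference, and the log2 fold change was 0.82 (SE 0.188, limma adjusted p = 0.0269). The call ended without CR31B replicate 1 (limma adjusted p = 0.0618), CR31B replicate 3 (0.058), DMSO replicate 2 (0.076) or DMSO replicate 4 (0.081), and with no filter on low values (0.104).

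CHAC1 (ENSG00000128965.13, chr15:40952962-40956519, plus strand), an enzyme that degrades glutathione, had the highest ratio of the 10 genes. It stood at 1.51, 0.9, 0.96 and 0.88 TPM in DMSO replicates 1 to 4 and at 5.67, 4.3, 4.76 and 6.11 TPM in CR31B replicates 1 to 4. The groups were far apart, with DMSO replicate 1 the highest of its group. The means of 5.21 ± 0.827 and 1.06 ± 0.300 TPM (SD, n = 4 each) differ 4.90-fold. The log2 fold change was 1.59 (SE 0.159, limma adjusted p = 0.000673), and 2.21 with a pseudocount of 0.1.

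**Figure D2:**
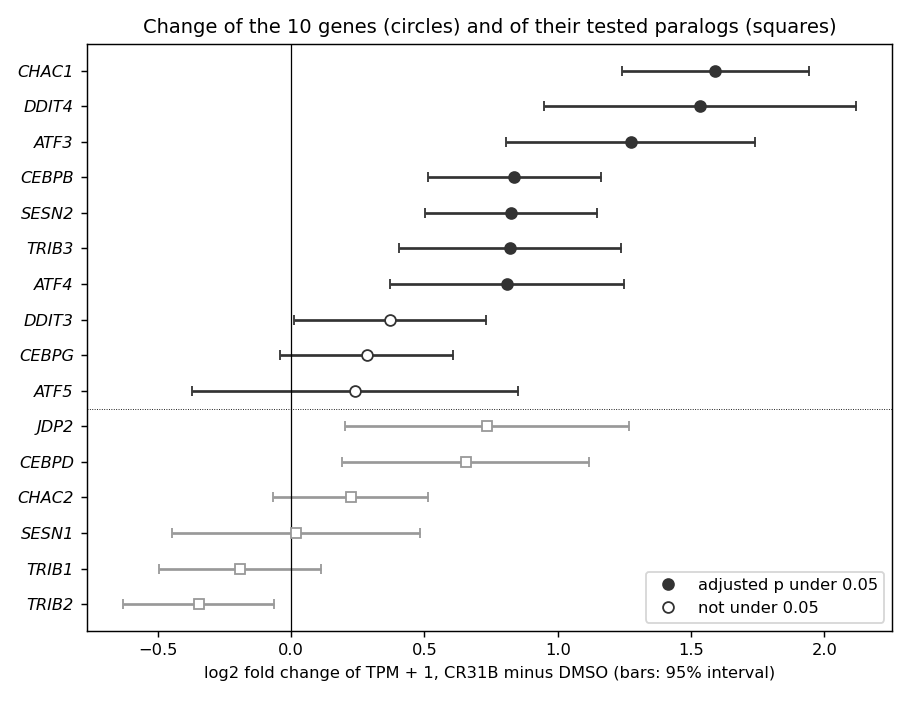
Log2 fold change of log2(TPM + 1), CR31B against DMSO, for each of the 10 genes (circles) and their 6 tested relatives (squares), with its 95% interval from limma and filled symbols for an adjusted p under 0.05. The intervals of ATF5 and CEBPG include 0, that of DDIT3 starts at 0.01, and those of the 7 genes that rose lie wholly above 0.

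The order of the levels shifted between the groups. TPM is scaled for length, but whether that length included untranslated parts of the mRNA is not given in the sources used here. The order between genes is therefore a rough one, and the places of ATF5 and DDIT3 are uncertain because of their overlapping genes. In DMSO, ATF4 at 159 TPM stood above all others, followed by DDIT4, ATF5, ATF3, CEBPB and CEBPG with means from 7.72 down to 3.76 TPM, and no neighbours among these 5 were apart. TRIB3, CHAC1 and DDIT3 came next, from 1.61 to 1.01 TPM, again overlapping, and SESN2 was lowest. In CR31B, ATF4 stayed highest, DDIT4 and ATF3 followed and overlapped, and ATF3 was now apart from CEBPB, the next gene. CEBPB, ATF5, CHAC1, CEBPG and TRIB3 formed a run of overlapping neighbours from 8.24 to 3.64 TPM. SESN2 and DDIT3 were lowest and overlapped. The 9 genes without ATF4 summed to 71.6 ± 8.24 TPM in CR31B (61.2 to 81.4) and 31.5 ± 6.00 TPM in DMSO (27.4 to 40.2, SD, n = 4 each). ATF4 held 76.9% to 81.2% of the sum of the 10 genes in CR31B and 79.4% to 86.5% in DMSO.

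Libraries differed in a way that many of the 10 genes shared. CR31B replicate 2 was the lowest CR31B library for 7 genes, and DMSO replicate 1 was the highest DMSO library for 7, with ATF5 tied. How often these libraries were lowest or highest over all genes tested was not computed, so the pattern may not be particular to the 10 genes. Without CR31B replicate 2, or without DMSO replicate 1, the number of the 10 genes called was 7 and 6, beside 738 and 502 of all genes tested. The median log2 fold change over all genes tested was then 0.06 and 0.04, beside 0.03 with all libraries.

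Several of the 10 genes have close relatives, and for 7 pairs both genes could be tested. Within each library the log2(TPM + 1) of the relative was taken from that of the gene, and this difference was then compared between treatments, two-sided, by exact permutation. In 4 pairs the CR31B libraries all lay above the DMSO libraries, so that the difference was higher in 4 of 4 replicate pairs. CHAC1 stood 1.92 ± 0.192 log2 units below CHAC2, a constitutive relative, in DMSO and 0.55 ± 0.267 below it in CR31B, a shift of 1.37. TRIB3 shifted by 1.17 against TRIB2 and by 1.01 against TRIB1, and passed from below TRIB1 in DMSO (-0.34 ± 0.187) to above it in CR31B (0.68 ± 0.221; SD, n = 4 each). SESN2 shifted by 0.81 against SESN1, a sestrin known as a p53 target. SESN2 could be tested only because its CR31B libraries were high, so its pair lends no support of its own. SESN1 was low too, with means of 1.085 TPM in CR31B and 1.015 TPM in DMSO. Each of these 4 shifts had an exact permutation p of 0.0286, the smallest possible, and an adjusted p over the 7 pairs of 0.05, which is at the threshold and not under it. Within replicate pairs the exact permutation p was 0.125 for each, the smallest that 4 pairs allow.

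For ATF3 and the C/EBP factors the groups overlapped in this difference. ATF3 shifted by 0.54 against JDP2 (exact permutation p = 0.0857, adjusted 0.1), a bZIP factor with a like DNA-binding region that averaged 2.56 ± 0.582 TPM in CR31B and 1.21 ± 0.749 TPM in DMSO. CEBPB shifted by 0.18 against CEBPD (exact permutation p = 0.657, adjusted 0.657), and CEBPG by -0.37 (exact permutation p = 0.0857, adjusted 0.1), lower in 4 of 4 replicate pairs. The ATF3 shift was 0.23 with a pseudocount of 0.1 and 0.36 without DMSO replicate 3, and the CEBPB shift ran from -0.0378 without DMSO replicate 2 to 0.40 without DMSO replicate 3. CEBPD itself had 7.71, 4.35, 5.55 and 4.75 TPM in CR31B and 3.94, 4.16, 2.16 and 2.55 TPM in DMSO, replicates 1 to 4, groups that did not overlap, but it did not pass (log2 fold change 0.65, limma adjusted p = 0.0871). JDP2 (0.73, adjusted p = 0.0944), CHAC2 (0.22, 0.341), SESN1 (0.02, 0.97), TRIB1 (-0.19, 0.443) and TRIB2 (-0.35, 0.133) did not pass in limma either. Every CR31B library lay below every DMSO library for TRIB1 (at most 2.0 against at least 2.01 TPM) and TRIB2 (16.17 against 16.81 TPM). Each TRIB3 shift above thus includes a lower mean of the relative in CR31B. JDP2 was called without DMSO replicate 3 (log2 fold change 0.93, limma adjusted p = 0.0333), and CEBPD when TPM was rescaled over protein-coding genes (0.68, adjusted p = 0.0324). CEBPA, SESN3 and DDIT4L were too low to test, with at most 0.09, 1.06 and 0 TPM in any library.

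**Figure D3:**
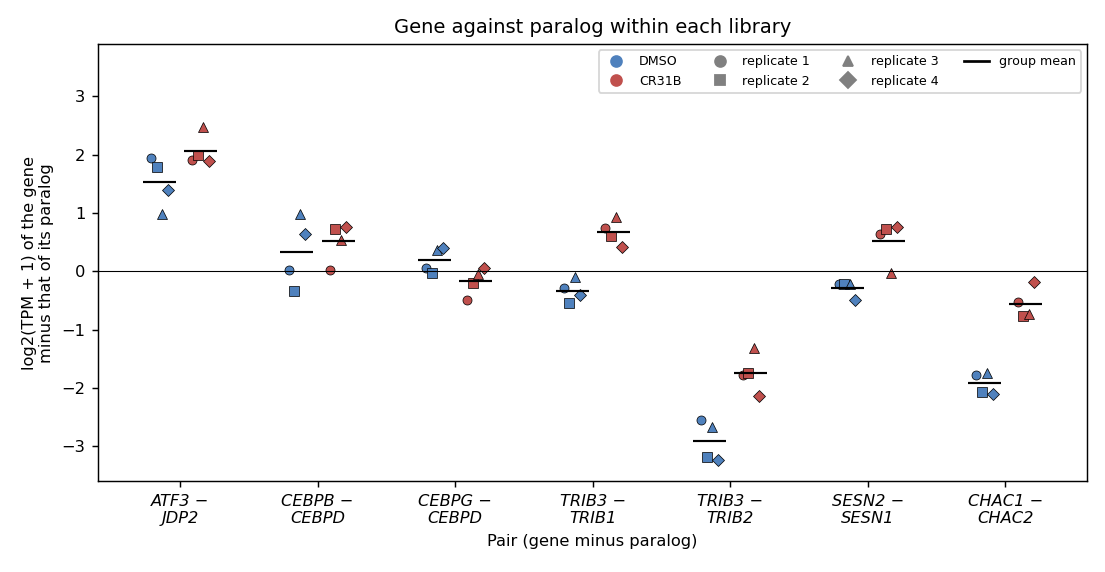
Difference of log2(TPM + 1) between a gene and its relative within each library, for the 7 pairs with both genes tested. Each point is a library (DMSO blue, CR31B red) and each bar a group mean. The CR31B and DMSO points do not overlap for TRIB3 against TRIB1 and TRIB2, SESN2 against SESN1 and CHAC1 against CHAC2, and overlap in the other 3 pairs.

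The 9 other genes were compared with ATF4 in the same way, a comparison added after the values were seen. None of the 9 passed after adjustment (smallest adjusted exact permutation p = 0.129). The largest shifts were those of CHAC1, 0.78 further up than ATF4 (exact permutation p = 0.0286), and DDIT4, 0.73 further up (0.0571). At the other end, CEBPG shifted by -0.53 (exact permutation p = 0.0286) and ATF5 by -0.57 (0.0571). Each of these 4 shifts had the same sign in 4 of 4 replicate pairs, with an exact permutation p within pairs of 0.125. TRIB3, SESN2 and CEBPB differed from ATF4 by 0.01 to 0.03 with the pseudocount of 1, which understates the change of low genes. With a pseudocount of 0.1 these shifts were 0.31 for TRIB3, 0.63 for SESN2 (adjusted exact permutation p = 0.0857) and 0.16 for CEBPB. With the pseudocount of 1, the sign of each turned on leaving out some single libraries.

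Upstream of ATF4, among the eIF2 kinases and their regulators, the eIF2 and eIF2B subunits and the eIF2 phosphatase partners, 1 of 17 tested genes rose and 0 fell. At an unadjusted limma p under 0.05, 3 were higher and 2 lower (12.0% and 11.3% over all genes tested), 12 lay above 0, and the median log2 fold change was 0.18. The gene that rose was PPP1R15B, the constitutive partner of the eIF2 phosphatase, with 46.2 ± 2.80 TPM after CR31B against 30.7 ± 0.832 TPM after DMSO (SD, n = 4 each; log2 fold change 0.57, limma adjusted p = 0.00766). PPP1R15A (GADD34), the stress-induced partner, which is also in the list of ATF4 targets, averaged 3.17 ± 0.597 and 3.09 ± 0.386 TPM, with a log2 fold change of 0.02 (95% interval -0.30 to 0.35, limma adjusted p = 0.95). EIF2AK3, which encodes the kinase PERK, averaged 2.93 ± 1.32 TPM in CR31B and 4.60 ± 1.15 TPM in DMSO with overlapping libraries, and did not pass (log2 fold change -0.54, limma adjusted p = 0.188). Phosphorylation of eIF2 is not measured by these data. Among 16 other ATF, CREB and related bZIP factors that were tested, 2 rose and 0 fell, with a median of 0.12 (6 higher and 0 lower at an unadjusted limma p under 0.05). The 2 were NFE2L1, which drives proteasome genes (274 ± 27.4 against 162 ± 26.4 TPM, log2 fold change 0.76, limma adjusted p = 0.009), and ATF1 (0.47, adjusted p = 0.0186).

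The other known ATF4 targets rose in part. Of 50 listed genes 46 could be tested, 38 lay above 0, 17 rose and 1 fell, and the median log2 fold change was 0.44. Of all genes tested, 3.45% were called higher and 4.02% lower. At an unadjusted limma p under 0.05 these shares were 12.0% and 11.3%. Of 13 tested enzymes of amino acid synthesis and one-carbon metabolism 9 rose and 0 fell, with a median of 0.81 (11 higher and 0 lower at an unadjusted limma p under 0.05). The 9 were ASNS, PHGDH, PSAT1, PSPH, SHMT2, MTHFD2, ALDH1L2, PYCR1 and GPT2. PSPH, the last enzyme of serine synthesis, moved most, from 12.59, 11.32, 16.38 and 15.84 TPM in DMSO to 46.18, 30.16, 59.04 and 36.78 TPM in CR31B, replicates 1 to 4 (log2 fold change 1.52, limma adjusted p = 0.00243). Its groups were far apart.

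Of 13 tRNA synthetase and tRNA export genes all lay above 0 and 4 rose, CARS1, GARS1, SARS1 and TARS1, with a median of 0.49. None fell, and 11 were higher and 0 lower at an unadjusted limma p under 0.05. Over all genes tested, 3.45% were called higher and 4.02% lower, and 12.0% and 11.3% at the unadjusted limma p. CARS1, the cysteinyl-tRNA synthetase, averaged 21.5 ± 5.61 TPM with CR31B against 10.3 ± 1.04 TPM with DMSO (SD, n = 4 each; log2 fold change 0.96, limma adjusted p = 0.00981). Of 10 amino acid transporters 2 rose and 0 fell, with a median of 0.42 (5 higher and 1 lower at an unadjusted limma p under 0.05). The 2 were SLC6A9, the glycine transporter (2.78 ± 0.767 against 0.560 ± 0.180 TPM, log2 fold change 1.26, limma adjusted p = 0.00382), and SLC3A2 (0.49, adjusted p = 0.0488). Like SESN2, SLC6A9 reached the mean of 1 TPM only through its CR31B libraries, and it was also called with no filter on low values (adjusted p = 0.0253); its log2 fold change was 2.13 with a pseudocount of 0.1. The secreted, feedback and remaining targets had 2 higher, VLDLR and VEGFA, and 1 lower, CDKN1A, of 10 tested, with a median of -0.09 (2 higher and 3 lower at an unadjusted limma p under 0.05). VEGFA, an angiogenic growth factor, averaged 5.37 ± 1.11 and 2.03 ± 0.382 TPM (log2 fold change 1.07, limma adjusted p = 0.00515). The promoter letters shown above for ATF3, CHAC1 and CEBPG were found in 15 of the 38 listed targets that have a RefSeq window. They occur in 2.52% of all tested genes with a window. Of these 15 targets 14 were tested. Of the 14, 5 rose (ASNS, CARS1, GARS1, SLC3A2 and TARS1) and 9 did not pass (AARS1, GOT1, IARS1, MARS1, NARS1, SLC1A4, SLC1A5, SLC38A1 and SLC7A1), beside 17 higher of all 46 tested targets.

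Among listed genes of the other arms of the unfolded protein response, those called ran the opposite way. Of 17 tested genes of the ATF6 and XBP1 arms, 0 rose and 5 fell, 3 lay above 0, and the median log2 fold change was -0.47. At an unadjusted limma p under 0.05, 1 was higher, XBP1 itself, and 9 were lower, beside 12.0% and 11.3% of all genes tested. The 3 above 0 were XBP1 (log2 fold change 0.51, limma adjusted p = 0.107), DNAJB9 (0.17, 0.582) and SYVN1 (0.01, 0.967). The 5 that fell were MANF, HSPA5, HSP90B1, DNAJB11 and PDIA4, all chaperones or folding factors of the endoplasmic reticulum or proteins secreted from it. MANF stood at 325.85, 283.38, 233.86 and 270.72 TPM in DMSO replicates 1 to 4 and at 141.37, 130.94, 114.96 and 112.57 TPM in CR31B replicates 1 to 4, with the groups far apart (log2 fold change -1.15, limma adjusted p = 0.00132). HSPA5, the chaperone BiP, had a log2 fold change of -0.99 (limma adjusted p = 0.0171). Targets of p53, some of which stress also induces through ATF4, showed 1 higher and 2 lower of 12 tested with a median of 0.01. At an unadjusted limma p under 0.05, 2 were higher and 2 lower, near the shares over all genes tested. By adjusted p, 3.45% of all genes tested were called higher and 4.02% lower. PHLDA3, which encodes an AKT inhibitor, rose (0.66, limma adjusted p = 0.0313), and CCNG1 (-0.56, 0.0456) and CDKN1A, the cell-cycle inhibitor p21, fell. CDKN1A averaged 16.8 ± 2.57 TPM in CR31B and 26.9 ± 4.90 TPM in DMSO (log2 fold change -0.65, limma adjusted p = 0.0299). It is counted here and among the remaining ATF4 targets.

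The counts over these lists varied with the fit and with single libraries. With the replicate block the called genes were 28 in place of 18 for all other ATF4 targets, 10 in place of 5 for the ATF6 and XBP1 list, 8 in place of 4 for tRNA synthetases, 5 in place of 2 for transporters, 5 in place of 3 for the secreted and remaining targets, 4 in place of 2 for ATF and CREB factors and 2 in place of 1 upstream. The p53 count of 3 went to 0 without CR31B replicate 1 or 3 or DMSO replicate 1 or 2 and to 1 without CR31B replicate 2 or 4 or DMSO replicate 4, and the ATF6 and XBP1 count of 5 went to 3 without CR31B replicate 4 or DMSO replicate 4 and to 8 without DMSO replicate 3. The transporter count was 1 on leaving out any library except CR31B replicate 2, and also with a pseudocount of 0.1 and with eBayes without trend. The count of secreted and remaining targets was 1 without DMSO replicate 4. That of ATF and CREB factors was 1 without CR31B replicate 4 or DMSO replicate 1.

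**Figure D4:**
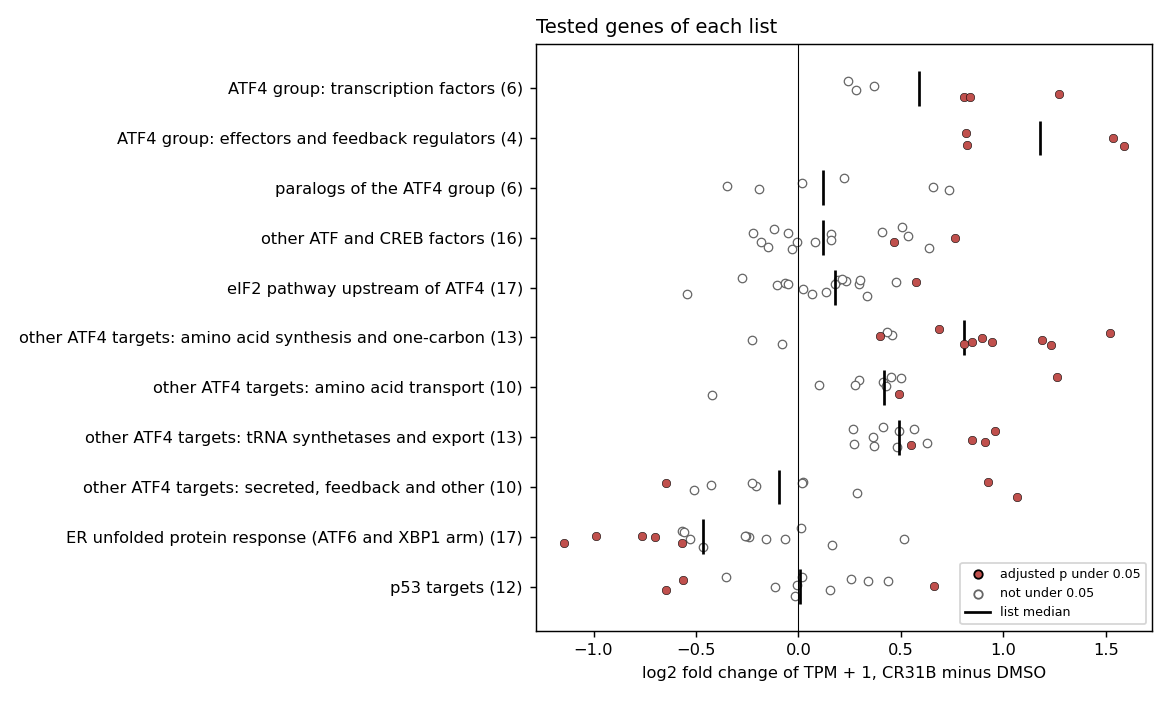
Log2 fold change (CR31B against DMSO) of every tested gene in each list, with filled points for genes called by limma and a bar at the list median. The ATF4 group and the amino acid synthesis, amino acid transport and tRNA synthetase lists lie wholly or mostly to the right of 0. The ATF6 and XBP1 list lies mostly to the left.

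The genes whose levels followed ATF4 most closely over the 8 libraries, among the 5611 outside the 10 that averaged 10 TPM or more, were MND1 (Pearson r = 0.98), a gene with the identifier ENSG00000274944.4 and no symbol (0.97), EIF3J (0.96), TRIT1 (0.96) and NDUFAF4 (0.95). MND1 is a meiotic recombination factor, EIF3J a loosely bound subunit of the initiation factor eIF3, TRIT1 a tRNA-modifying enzyme and NDUFAF4 an assembly factor of respiratory complex I. These values describe a match across libraries that share the 2 treatment groups and the normalization. MND1 itself had 46.82, 28.65, 42.31 and 38.2 TPM in CR31B and 21.4, 22.28, 13.53 and 22.16 TPM in DMSO, replicates 1 to 4, with its lowest CR31B library in replicate 2 and its lowest DMSO library in replicate 3, as for ATF4. Of the 9 other stress-response genes CEBPG followed ATF4 most closely (r = 0.93), then SESN2 (0.89), CHAC1 (0.86) and DDIT4 (0.85), and DDIT3 least (0.34).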

How the data were processed

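The authors deposited TPM values (transcript abundance corrected for length, with the same total in each library) of 60651 genes, as 1 table covering 8 Ribo-seq libraries. Per the submitters' processing notes, cutadapt 3.2, Bowtie2 2.3.4.1, STAR 2.7.1a, RSEM 1.2.28 and DESeq2 1.32.0 were used with GRCh38 (hg38), without roles or order. Annotation release, strand setting and handling of multiply placed reads are not given in the sources used here. Libraries were sequenced in 2 runs per the labels, with no map of libraries to runs, so a run effect could not be computed.

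The 11778 genes that averaged 1 TPM or more were fitted as log2(TPM + 1) with limma 3.58.1 in R 4.3.3 (eBayes with trend, treatment only), and p-values were adjusted by Benjamini-Hochberg over all of them. Fold changes on this scale understate changes of low genes. Single values were compared by two-sided exact permutation over 70 assignments of libraries. Gene positions, types and leaders came from GENCODE 29 and promoters from RefSeq, read with Python 3.11.15.

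Replicate numbers occur in both groups. Same-numbered libraries deviated together (correlations of 0.33, 0.32, 0.30 and 0.10 across genes for replicates 1 to 4), and differently numbered ones had correlations from -0.21 to 0.13, the highest, of CR31B 4 with DMSO 1, being above that of replicate 4. As every same-numbered value was over 0.1, a fit with the number as a block was run as an alternative.

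The genes and lists were chosen with earlier results of these data known. Named besides the 10 genes were their tested relatives, the called gene with the largest rise and fall of each list, PPP1R15A, EIF2AK3 and the 5 genes most like ATF4. Further called list genes, some list genes that were not called, the relatives too low to test, overlapping genes, ATF4 pseudogenes and markers were named after their values were seen. Alternatives were other pseudocounts, filters, rescaling over protein-coding genes, quantile normalization, eBayes without trend and leaving out each library. One item of the marker lists is not reported here.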

Additional observations from a re-analysis of the deposited data

Results flagged for a closer look

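In 3 of the 20 sets of 4 libraries (10 genes in 2 groups) a library stood far from the other 3 by Dixon's criterion, where chance gives about 1. ATF4 in DMSO replicate 3 was 106.21 TPM, with the other DMSO libraries from 172.1 to 181.02 TPM. DDIT4 in DMSO replicate 1 was 12.34 TPM, with the others from 5.69 to 6.77 TPM. CHAC1 in DMSO replicate 1 was 1.51 TPM, with the others from 0.88 to 0.96 TPM. Without the library in question the log2 fold changes were 0.63 for ATF4, 1.76 for DDIT4 and 1.69 for CHAC1, and all 3 genes were still called by limma.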

How the results depend on the processing

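Of 152 log2 fold changes of the 10 genes under other settings, 140 kept direction and side of the threshold and 12, all of ATF4 or TRIB3, fell short of it. None changed sign. ATF3, CEBPB, CHAC1, SESN2 and DDIT4 were called under every setting in which they were tested, and ATF5, DDIT3 and CEBPG under none. ATF4 kept its log2 fold change of 0.81 with no filter on low values but was not called, and ran from 0.63 to 0.95 when single libraries were left out. The number of the 10 genes called was 5 to 7 on leaving out single libraries and 2 at a mean of at least 10 TPM, where only ATF4 and DDIT4 are tested. The count over all genes, 879, was 442 with no filter and from 405 without DMSO replicate 4 to 785 without DMSO replicate 3, and also more than 1.5 times lower without CR31B replicate 4 or DMSO replicate 1 or 2. With the replicate block it was 1453, and the block changed no call among the 10 genes. The count called higher, 406, was 181 with no filter, 670 rescaled over protein-coding genes, 680 with the block and 197 to 393 without single libraries. With no filter the list counts were 11 for all other ATF4 targets (18 in the fit reported), 5 for amino acid synthesis (9), 3 for the ATF6 and XBP1 list (5), 1 for transporters (2), 1 for secreted and remaining targets (3) and 0 for p53 targets (3). Rescaled, they were 9 for tRNA synthetases (4), 8 for ATF6 and XBP1 (5), 5 for ATF and CREB factors (2) and 2 upstream (1), and with quantile normalization 7 for tRNA synthetases.

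Small values changed sign: SESN1 was -0.00472 with a pseudocount of 0.1, -0.00129 under quantile normalization and -0.16 to 0.14 on leaving out single libraries, and PPP1R15A was -0.00964 under quantile normalization and -0.0742 to 0.0703 on leaving out single libraries. Against ATF4 under quantile normalization, TRIB3 shifted by -0.0790 and CEBPB by -0.0794, and on leaving out single libraries TRIB3 ran from -0.15 to 0.23, CEBPB from -0.14 to 0.30 and SESN2 from -0.0744 to 0.16. With 3 against 4 libraries the exact test of a gene pair cannot reach 0.05, so pairs were only compared in value then.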
